A study of Mus musculus with 8 samples.

Results

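Solute carriers are membrane proteins that move nutrients, ions and cofactors across the plasma membrane and the membranes of organelles. They were taken here as every gene of the deposited expression table whose symbol starts with Slc followed by a family number, a letter and a member number, with Slc2a1, Slc2a3, Slc38a4 and Slc22a18 left out. This gave 272 genes, of which 193 averaged 1 FPKM or more across the 8 libraries and were described, out of 13483 genes above that level and 17589 genes in all. FPKM are fragments per kilobase of transcript, relative to the size of the library, so they are levels per length and can be set side by side between genes. The other 79 genes had means from 0.120 to 0.998 FPKM and were not tested.

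The 8 libraries came from C57BL/6 mice that carry the GOF/deltaPE-Oct4/GFP reporter, at 6 days after birth, with 4 controls and 4 knockouts of Kdm1a. KDM1A is a demethylase that removes methyl marks from histone H3. The protocol calls the knockout conditional, and neither the Cre driver nor the alleles of the controls are given in the sources used here. In both groups, spermatogonia were collected by sorting GFP-positive germ cells from testes digested with collagenase and trypsin, so cells that had lost the reporter are outside the comparison. Nothing in the labels ties each library to a different animal, so the p-values reflect the spread among these 8 samples alone, and that spread may be technical.

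Kdm1a was measured at 53.7, 54.0, 92.0 and 48.1 FPKM in control libraries 1 to 4 and at 14.2, 14.1, 17.3 and 14.9 FPKM in knockout libraries 1 to 4, and was 4.10-fold lower in the knockouts (limma adjusted p = 6.88e-05). The groups did not overlap. Whether the fragments left in the knockouts lie outside the deleted part was not examined. Germ cell markers such as Ddx4 and Dazl were abundant in all 8 libraries, and the summed level of 8 germ cell markers was 880 to 970 FPKM in controls and 830 to 899 FPKM in knockouts. Most of that sum was Dazl and Ddx4. The mean of log2(FPKM + 1) over the 8 was 6.27 to 6.38 in controls and 5.89 to 5.95 in knockouts. Of these markers Sall4 and Zbtb16 fell, Zbtb16 from a mean of 61.2 to 22.3 FPKM, and none rose. Markers of other testis cells were low: summed levels were 19.0 to 52.4 FPKM in controls and 40.2 to 69.3 FPKM in knockouts for 11 Sertoli cell genes, and 4.00 to 5.76 against 11.8 to 12.5 FPKM for 5 endothelial genes. For 5 peritubular myoid genes the sums were 4.08 to 6.79 and 4.78 to 7.26 FPKM, for 3 macrophage genes 2.04 to 2.78 and 1.86 to 3.95 FPKM, for 2 Leydig cell genes 1.78 to 2.65 and 1.91 to 3.27 FPKM, and for 2 erythroid genes 0.282 to 0.760 and 1.60 to 2.50 FPKM. Of the 2 erythroid genes only Alas2 was higher in the knockouts, and Hbb-b1 was not. Of the tested markers, 1 of 8 Sertoli genes (Rhox5) and 2 of 3 endothelial genes (Tek and Pecam1) rose. The part of these cells in the solute carrier changes was not tested. Depth estimated from the steps between low FPKM values was 60750000 to 67000000 fragments in controls and 45000000 to 63250000 in knockouts, and knockout replicate 2, the shallowest, listed 1642 transcript entries at 0 against 506 to 734 in the other libraries.

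Carriers work by coupling a substrate to an ion gradient, by exchanging it for another solute, or by letting it pass down its own gradient. Members that share a family number are related in sequence and mostly in substrate. In the seminiferous tubule, lactate released by Sertoli cells is a fuel of germ cells, and its uptake runs through monocarboxylate carriers. Carriers of the mitochondrial inner membrane link the cytosol to respiration. Carriers of the Golgi and endoplasmic reticulum bring in the nucleotide sugars used to glycosylate proteins.

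Among the 193 solute carrier genes, 57 rose and 17 fell in the knockouts, and 119 did not pass the test. A gene was called where limma, fitted over all 13483 genes on log2(FPKM + 1), gave an adjusted p under 0.05. Over all genes, 25.3% rose and 12.1% fell (37.5% called), against 29.5% and 8.81% of the solute carriers (38.3% called), so the shares of carriers called lay near the background. The median log2 change was 0.09 for the carriers and 0.09 for all genes. Log2 changes of the carriers ran from -1.07 to 1.79, and those of all genes from -10.26 to 8.37. By size, 11 carriers rose by a log2 change of 1 or more, which 4.56% of all genes did, while 2 fell by as much, which 1.15% of all genes did. In 77 carriers (39.9%) the 4 knockout values and the 4 control values did not overlap, as in 38.6% of all genes. In bulk samples, fewer cells of a type and less RNA per cell cannot be told apart.

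The counts of rises and falls depended on how the libraries were scaled to each other. With median-ratio scaling, which brings the middle of the gene-by-gene ratios between libraries to 1, 40 carriers rose and 34 fell (20.7% and 17.6%, against 17.7% and 20.5% of all genes). The median log2 change of all genes moved to -0.04. With small RNA genes removed and the rest set to equal totals, 43 rose and 21 fell (22.3% and 10.9%, against 20.8% and 15.1% of all genes). With equal totals of all deposited values, 136 rose and 2 fell (70.5% and 1.04%, against 70.8% and 1.12% of all genes). The median of all genes was then 0.73, and 11 of the 17 falls had the opposite sign, none of them called. Without knockout replicate 2, 71 rose and 22 fell (36.8% and 11.4%, against 28.6% and 15.0% of all genes). Each of 35 rises and 2 falls (Slc4a3 and Slc9a3r2) passed the test under all 17 alternative settings, and 11 falls did so under the 16 settings other than equal totals.

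**Figure D1:**
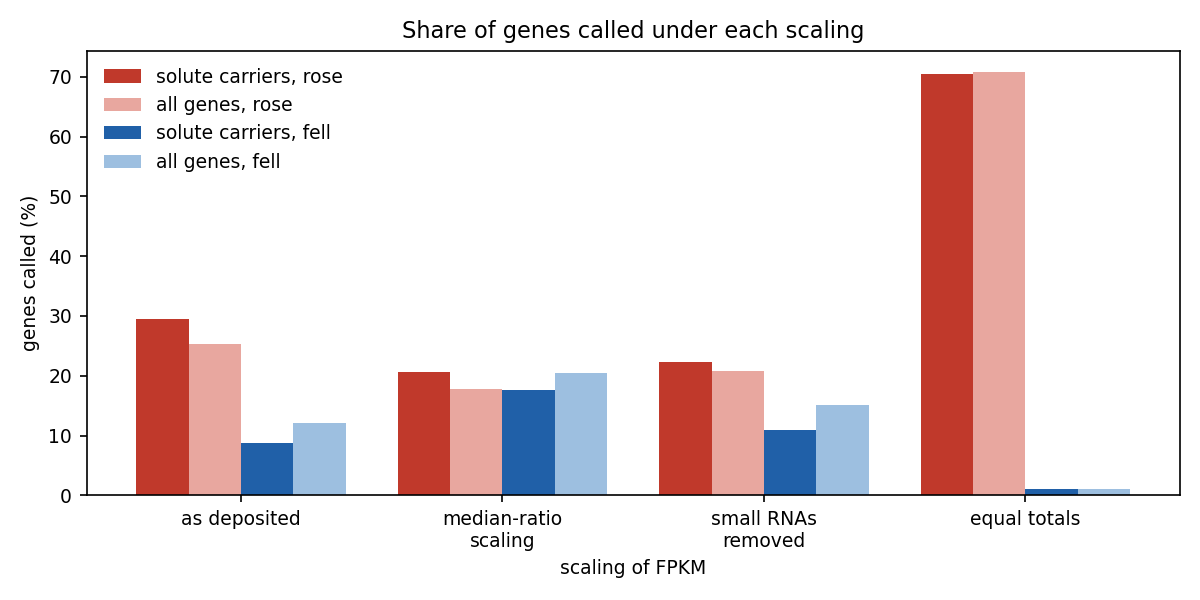
Share of genes called as higher or lower in the knockouts (%, y axis), for the 193 solute carriers and for all tested genes, with FPKM as deposited and under 3 other scalings (x axis). Among the carriers 29.5% rose and 8.81% fell as deposited, 20.7% and 17.6% with median-ratio scaling, 22.3% and 10.9% once small RNAs were taken out, and 70.5% and 1.04% with equal totals. The shares of all genes, in the same order, were 25.3% and 12.1%, 17.7% and 20.5%, 20.8% and 15.1%, and 70.8% and 1.12%.

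By substrate, rises outnumbered falls in most groups of the deposited values. The carriers of nucleotides and nucleotide sugars had 10 rises and no fall among 26 genes, those of ions 15 rises and 7 falls among 52, and those of the mitochondrial family 11 and 3 among 38. Shares of the ion group (28.8% rose and 13.5% fell) and of the mitochondrial group (28.9% and 7.89%) lay near those of all genes (25.3% and 12.1%), and 38.5% of the nucleotide group rose. Amino acid carriers had 4 rises and 2 falls among 25, and monocarboxylate carriers 3 rises and no fall among 8. Of the genes outside these classes, 11 sugar carriers had 5 rises and no fall, 9 carriers of vitamins and cofactors 5 rises and no fall, and 19 carriers of lipids and organic ions 4 rises and 4 falls. Of these rises, 6 are of genes that passed the filter only through the knockouts, where they were high, and whose inclusion thus depended on the rise: Slc2a5, Slc37a2 and Slc45a1 among the 5 sugar carriers, Slc19a3 among the vitamin carriers, Slc16a5 among the monocarboxylate carriers and Slc22a16 among those of organic ions. The remaining 5 genes bear an Slc symbol but are no carriers, and 1 of them fell. With median-ratio scaling, falls outnumbered rises over all genes (20.5% against 17.7%). In that setting the 25 amino acid carriers had 6 falls and 3 rises, and the 38 mitochondrial ones 9 falls and 7 rises. The 11 sugar carriers had 3 falls and 3 rises. Differences between the groups were not tested.

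**Figure D2:**
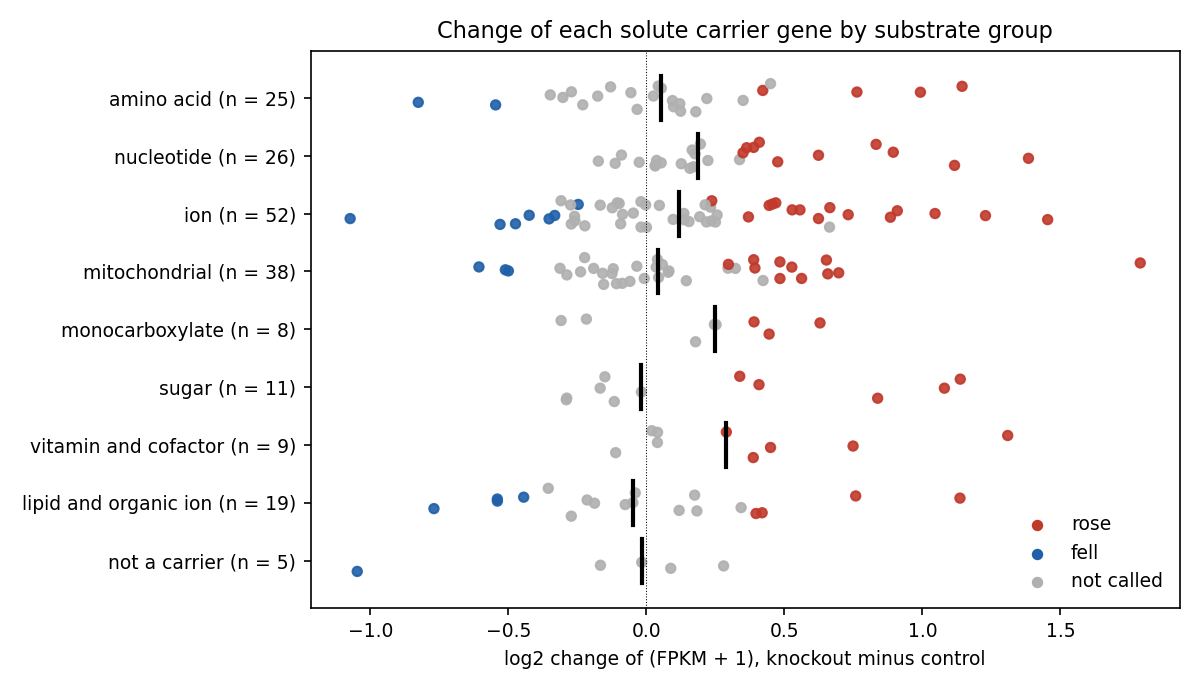
Log2 change of FPKM + 1, knockout minus control (x axis), of each of the 193 solute carrier genes by substrate group (y axis), coloured by the limma call in the values as deposited, with a black line at each group's median. Medians ran from -0.05 for lipid and organic ion carriers to 0.29 for vitamin and cofactor carriers. The nucleotide, monocarboxylate, sugar and vitamin groups held no fall. With median-ratio scaling 3 sugar carriers fell. Falls then outnumbered rises in the amino acid and mitochondrial groups, as they did over all genes (20.5% fell and 17.7% rose).

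Promoters of the members that changed most are printed to show what kind of start site they have. RefSeq promoter sequences of GRCm38.p6 matched 150 of the 193 genes. Of the called members with a single RefSeq start within 50 bases of the start of a deposited transcript, 36 in all, those with the 2 largest rises and the 2 largest falls are given. The 250 bases before each start are written 5′ to 3′ on the strand of the gene, with the GC box GGGCGG, the site of Sp-family activators, in capitals on either strand (CCGCCC where it lies on the other one). Slc25a12 and Slc19a3 rose, and Slc22a17 and Slc4a3 fell.
Slc25a12 (chr2:71367756-71368005, minus strand): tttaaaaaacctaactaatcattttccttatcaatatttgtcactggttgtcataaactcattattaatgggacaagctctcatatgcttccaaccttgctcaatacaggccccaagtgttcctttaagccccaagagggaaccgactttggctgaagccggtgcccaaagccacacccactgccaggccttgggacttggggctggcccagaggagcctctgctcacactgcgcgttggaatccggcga
Slc19a3 (chr1:83038449-83038698, minus strand): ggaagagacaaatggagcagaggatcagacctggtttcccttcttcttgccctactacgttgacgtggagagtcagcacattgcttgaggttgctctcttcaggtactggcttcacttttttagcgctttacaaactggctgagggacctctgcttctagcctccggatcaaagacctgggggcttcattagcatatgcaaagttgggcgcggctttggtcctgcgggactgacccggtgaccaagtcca
Slc22a17 (chr14:54913133-54913382, minus strand): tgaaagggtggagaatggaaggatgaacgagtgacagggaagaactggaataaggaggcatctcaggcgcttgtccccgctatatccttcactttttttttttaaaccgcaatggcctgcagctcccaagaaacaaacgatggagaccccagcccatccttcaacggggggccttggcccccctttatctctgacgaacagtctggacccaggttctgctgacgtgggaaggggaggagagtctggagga
Slc4a3 (chr1:75546212-75546461, plus strand): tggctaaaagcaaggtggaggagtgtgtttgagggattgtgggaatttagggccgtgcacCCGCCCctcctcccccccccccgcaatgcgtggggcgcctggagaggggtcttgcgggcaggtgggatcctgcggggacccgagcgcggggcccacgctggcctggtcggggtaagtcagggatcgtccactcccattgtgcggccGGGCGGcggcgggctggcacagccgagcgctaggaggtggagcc
Of these 4, Slc4a3 held 2 GC boxes and the other 3 held none. The Slc4a3 window runs past the annotated gene start at 75546266, and both boxes lie inside the gene. The other 3 windows lie outside their genes. Among the 150 matched members, 65.3% held the box in this window, against 60.8% of the promoters of 9164 tested genes and 32.9% of all 27025 RefSeq promoters. It was found in 28 of 46 matched members that rose (60.9%), in 10 of 14 that fell (71.4%) and in 60 of 90 that were not called (66.7%). The E-box CACGTG lay in 14.7% of the members' promoters and in 9.21% of those of tested genes. A match is a description of the letters and not a bound site.

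In what follows, values by library are given for controls 1 to 4 and then for knockouts 1 to 4, and values with ± are means and SD (n = 4), controls first. Slc25a12 had the largest rise of the carriers on the log2 scale. It encodes aralar, which exchanges aspartate for glutamate across the mitochondrial inner membrane in the malate-aspartate shuttle. Its level was 3.67, 2.64, 3.97 and 3.83 FPKM in the controls and 12.9, 17.7, 13.0 and 14.9 FPKM in the knockouts. Every knockout library lay above every control, by 4.15-fold in the means (log2 change 1.79 ± 0.14 SE, limma adjusted p = 2.02e-05). The gene lies at chr2:71271063-71367749 on the minus strand of GRCm38. Most of its level came from a 994-base entry annotated as a processed transcript without a coding sequence, at 1.98 ± 0.415 FPKM in controls and 8.72 ± 2.02 FPKM in knockouts (SD, n = 4). The 6351-base coding entry went from 0.671 ± 0.0930 to 2.58 ± 0.357 FPKM, and 4 of the 6 entries had groups that did not overlap. Its close relative Slc25a13, citrin, has the same exchange and also rose, from 4.40 ± 0.469 to 6.96 ± 0.650 FPKM (adjusted p = 0.00242, limma).

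Other mitochondrial carriers changed less. Slc25a24 exchanges ATP-magnesium for phosphate, and its levels were 4.30, 2.77, 3.80 and 4.03 FPKM in controls and 7.49, 5.58, 6.59 and 6.87 FPKM in knockouts (1.78-fold higher, limma adjusted p = 0.00290). Of 3 ADP/ATP carriers measured, 2 rose. Slc25a4, the form of heart and muscle, was at 16.9, 12.8, 20.1 and 20.7 FPKM in controls and 25.7, 33.8, 27.0 and 25.9 FPKM in knockouts (1.59-fold, adjusted p = 0.00888). Slc25a5, on the X chromosome, rose from 46.8 ± 11.0 to 64.7 ± 6.54 FPKM (adjusted p = 0.0365), with groups that overlapped and with the call lost under 8 alternatives. Slc25a31, the form found in germ cells, was far more abundant at 176 ± 11.3 FPKM in controls and 195 ± 23.0 FPKM in knockouts, and did not pass the test (adjusted p = 0.291). The phosphate carrier Slc25a3 was as abundant, at 184 ± 7.46 and 184 ± 21.1 FPKM (adjusted p = 0.957). The ADP/ATP carriers and the phosphate carrier supply the ATP synthase with its substrates.

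The 3 falls of the mitochondrial family were Slc25a35, Slc25a42 and Slc25a22. Slc25a35, whose substrate is not established, was at 6.53, 6.79, 7.58 and 8.13 FPKM in controls and 3.92, 3.77, 4.74 and 5.34 FPKM in knockouts (1.63-fold lower, adjusted p = 0.00365). Slc25a42, which carries coenzyme A, was at 5.40, 5.69, 5.75 and 5.41 FPKM and 4.00, 2.83, 3.90 and 3.79 FPKM (1.53-fold lower, adjusted p = 0.00481). Slc25a22, a glutamate carrier, was at 14.1, 15.2, 15.0 and 13.1 FPKM and 9.09, 11.2, 10.3 and 8.91 FPKM (1.45-fold lower, adjusted p = 0.00314). In all 3 genes each knockout library was below each control. With equal totals all 3 had the opposite sign, uncalled. For Slc25a22 the call also did not hold for its most abundant transcript alone.

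**Figure D3:**
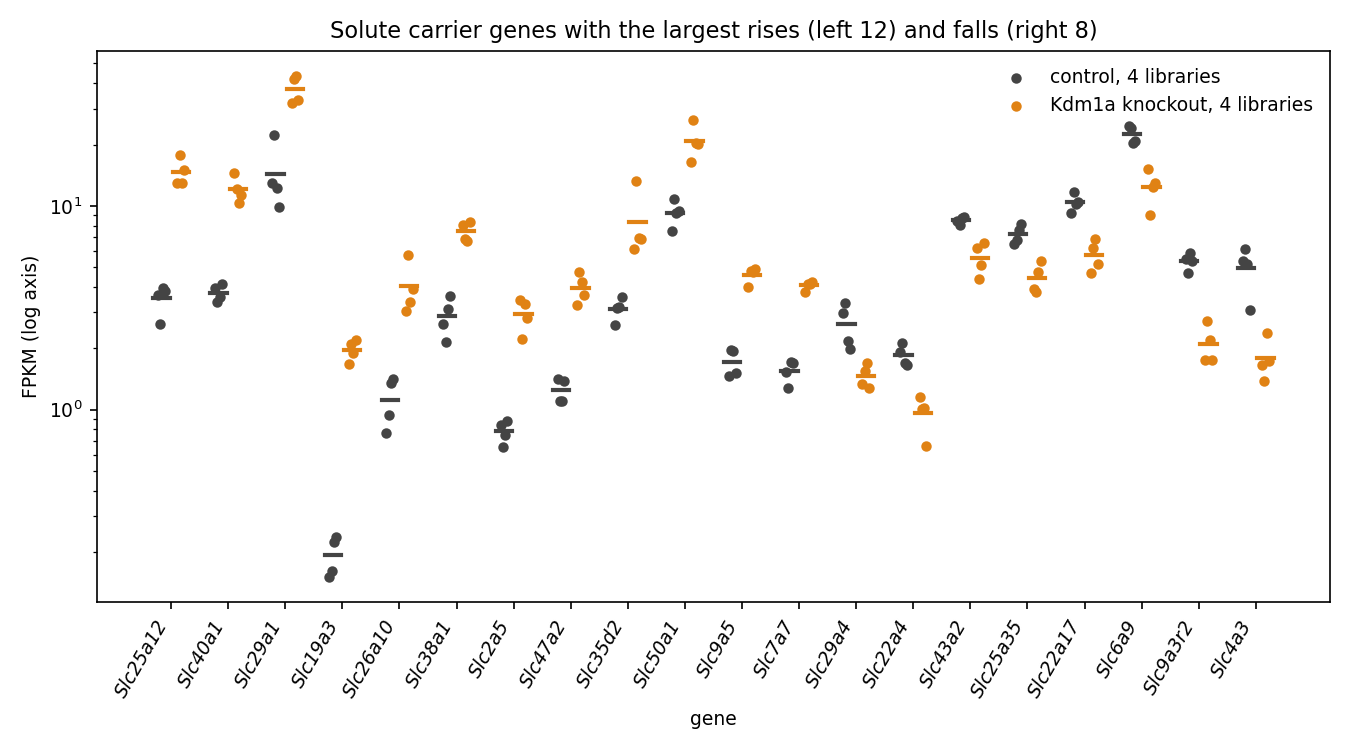
FPKM on a log axis (y axis) of 20 solute carrier genes (x axis) in each of the 4 control and 4 knockout libraries, with a line at each group's mean, the 12 largest rises on the left and the 8 largest falls on the right. The genes were picked only among called carriers whose groups did not overlap. Over all genes, groups did not overlap in 38.6%. Of the 8 falls only Slc4a3 and Slc9a3r2 stayed called with equal totals, where Slc43a2 and Slc25a35 had the opposite sign.

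In the nucleotide group, Slc29a1 rose most. It encodes the equilibrative nucleoside transporter that takes up adenosine and other nucleosides. Its level was 12.9, 22.3, 12.2 and 9.85 FPKM in controls, where replicate 2 was highest, and 32.0, 41.9, 43.5 and 33.2 FPKM in knockouts, 2.63-fold higher in the means (log2 change 1.38 ± 0.22 SE, limma adjusted p = 0.00110). All 12 of its transcript entries had higher means in the knockouts. An antisense gene that overlaps it, Gm17080, also rose, from 0.767 to 1.97 FPKM. Slc35b2, which carries the sulfate donor PAPS into the Golgi, lies 17529 bases from it on chromosome 17 and rose from 3.43 ± 0.554 to 4.76 ± 0.262 FPKM (adjusted p = 0.0213). That call was lost with median-ratio scaling, with removal of small RNAs, and without control replicate 3, knockout replicate 3 or knockout replicate 4. Slc29a4, of the same family as Slc29a1, was placed outside the nucleotide group and fell, from 2.62 ± 0.656 to 1.46 ± 0.19 FPKM. Its fall was called, but not with equal totals.

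Nucleotide sugar carriers of family 35 and their relatives made up 22 of the 26 genes in that group, with 8 rises and no fall. Of these genes 36.4% rose, against 25.3% of all genes, of which 12.1% fell. Members of family 35 without a known substrate were counted among the 22. Slc35d2 and Slc35a3 both carry UDP-N-acetylglucosamine into the Golgi. Slc35d2 was at 2.61, 3.16, 3.21 and 3.57 FPKM in controls and 6.15, 13.2, 6.95 and 6.86 FPKM in knockouts (2.65-fold, adjusted p = 0.00259), with knockout replicate 2 well above the other 3. Slc35a3 was at 2.57, 2.25, 2.59 and 2.45 FPKM and 7.15, 4.28, 5.23 and 5.40 FPKM (2.24-fold, adjusted p = 0.000781). Both pairs of groups were apart, and both calls held under all 17 alternatives. The most abundant members of the group were not called: Slc35b1 was at 38.4 ± 4.22 and 43.4 ± 8.70 FPKM (adjusted p = 0.420), and Slc35a4 at 32.2 ± 1.86 and 37.2 ± 4.19 FPKM (adjusted p = 0.121). The rises in the whole nucleotide group came down to 5 of 26 either with median-ratio scaling or after removal of small RNAs. Of all genes 17.7% rose with median-ratio scaling and 20.8% after removal of small RNAs.

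Ion carriers were the largest group, and Slc40a1 rose most in it. Slc40a1 is ferroportin, the exporter of iron from cells. Control libraries held 3.94, 3.37, 3.56 and 4.14 FPKM and knockout libraries 14.5, 12.1, 10.3 and 11.3 FPKM, with no overlap and a mean 3.22-fold higher (log2 change 1.45 ± 0.11 SE, limma adjusted p = 2.38e-05). Macrophages also express ferroportin strongly, and the macrophage markers Cd68, Cd14 and Cx3cr1 summed to 2.04 to 2.78 FPKM in controls and 1.86 to 3.95 FPKM in knockouts. Most of that sum was Cd68, which was not called, at 1.89 ± 0.392 and 1.62 ± 0.511 FPKM, while Cx3cr1 was far below the filter at 0.0497 ± 0.0141 and 0.235 ± 0.157 FPKM, 4.73-fold higher in the knockouts with groups that did not overlap. Tfrc, the transferrin receptor that brings iron in, rose as well, from 45.1 ± 3.73 to 80.5 ± 8.34 FPKM (1.78-fold, adjusted p = 0.000225), a call that did not hold for its most abundant transcript alone. The erythroid genes found, Alas2 and Hbb-b1, summed to 0.282 to 0.760 FPKM in controls and 1.60 to 2.50 FPKM in knockouts. Only Alas2 was higher in the knockouts, at 0.289 ± 0.0109 and 1.65 ± 0.529 FPKM. Hbb-b1 was at 0.268 ± 0.212 and 0.234 ± 0.194 FPKM, with groups that overlapped. Neither gene was tested. The part of either cell type in the level of Slc40a1 was not tested.

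Exchangers of protons, chloride and bicarbonate moved in both directions. Slc26a10, of the anion exchanger family, was at 0.770, 0.938, 1.35 and 1.42 FPKM in controls and 3.04, 5.76, 3.38 and 3.92 FPKM in knockouts (3.59-fold higher, limma adjusted p = 0.000663). Slc9a5, a sodium-proton exchanger, was at 1.46, 1.96, 1.94 and 1.50 FPKM and 3.98, 4.78, 4.73 and 4.92 FPKM (2.68-fold higher, adjusted p = 9.94e-05). Knockout levels of both were above every control. Slc4a3, a chloride-bicarbonate exchanger, fell most of all carriers, from 5.34, 6.14, 5.19 and 3.09 FPKM in controls to 1.66, 1.38, 2.37 and 1.74 FPKM in knockouts (2.76-fold lower, log2 change -1.07 ± 0.18 SE, adjusted p = 0.00164). Most of that level came from entries annotated as nonsense-mediated decay or retained introns, together 4.62 ± 1.21 and 1.66 ± 0.397 FPKM, and the coding entry was at 0.320 ± 0.111 and 0.126 ± 0.0416 FPKM. The fall stayed called under all 17 alternatives, and control replicate 4 was the lowest control. Slc12a5, a potassium-chloride cotransporter best known from neurons, was at 4.02, 3.30, 4.66 and 4.64 FPKM and 2.57, 2.76, 2.65 and 2.23 FPKM (1.63-fold lower, adjusted p = 0.00590, sign opposite and uncalled with equal totals). Its family of cation-chloride cotransporters had 3 rises and 2 falls among 7 genes (42.9% and 28.6%, against 25.3% and 12.1% of all genes).

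Zinc carriers numbered 18, with 5 rises and 1 fall, and their share of rises (27.8%) lay near that of all genes (25.3%). The rises were Slc30a2, Slc30a7, Slc30a9, Slc39a1 and Slc39a11, of which Slc30a7 lost its call under 9 alternatives, median-ratio scaling and removal of small RNAs among them. Family 30 moves zinc out of the cytosol and family 39 into it. Slc30a2 was the largest, from 8.24 ± 0.696 to 16.1 ± 1.66 FPKM (adjusted p = 0.000152). Slc39a3 fell, from 3.05, 3.82, 3.55 and 3.57 FPKM in controls to 2.14, 2.46, 2.54 and 1.84 FPKM in knockouts (1.56-fold lower, adjusted p = 0.00708, sign opposite and uncalled with equal totals). Slc39a7, which releases zinc from the endoplasmic reticulum, was the most abundant ion carrier at 88.9 ± 3.03 FPKM in controls and 92.5 ± 14.0 FPKM in knockouts and was not called (adjusted p = 0.753). The phosphate carrier Slc20a1 was next, at 57.0 ± 7.30 and 56.6 ± 2.94 FPKM, also not called (adjusted p = 0.983).

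ATP-driven pumps and their partners were counted beside the ion carriers. Of 14 tested genes 6 rose and 1 fell (42.9% and 7.14%, against 25.3% and 12.1% of all genes). The called genes of smallest adjusted p were 3 small FXYD subunits that modulate the sodium pump: Fxyd2 went from 3.35 ± 0.604 to 8.18 ± 1.44 FPKM (adjusted p = 0.000490), Fxyd6 from 12.0 ± 3.11 to 26.4 ± 3.56 FPKM (adjusted p = 0.00105) and Fxyd5 from 5.66 ± 1.18 to 12.2 ± 3.23 FPKM (adjusted p = 0.00277). Of 13 tested genes of other carriers and channels, 5 rose and 3 fell (38.5% and 23.1%). In that list Ucp2, an uncoupling protein of the mitochondrial family that lacks an Slc symbol, rose from 4.89 ± 1.23 to 14.1 ± 2.35 FPKM (adjusted p = 0.000279), and its relative Mtch1 fell from 58.1 ± 1.90 to 33.3 ± 4.45 FPKM (adjusted p = 0.000283; with equal totals it was not called).

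Of the 25 amino acid carriers 6 were called in the values as deposited (24.0%, against 37.5% of all genes). With median-ratio scaling 9 of the 25 were called, while 17.7% of all genes rose and 20.5% fell. Slc38a1, a sodium-coupled carrier of glutamine and other neutral amino acids, was at 2.63, 2.14, 3.12 and 3.63 FPKM in controls and 8.10, 6.90, 6.72 and 8.33 FPKM in knockouts (2.61-fold higher, log2 change 1.14 ± 0.13 SE, limma adjusted p = 0.000227). Its neighbour on chromosome 15 and relative, Slc38a2, was not called, at 20.3 ± 3.05 and 16.3 ± 2.71 FPKM (adjusted p = 0.121). Slc7a7 is a light chain that exports cationic amino acids when paired with the heavy chain Slc3a2. It was at 1.52, 1.27, 1.72 and 1.70 FPKM in controls and 3.80, 4.12, 4.14 and 4.22 FPKM in knockouts (2.62-fold higher, adjusted p = 6.30e-05), while Slc3a2, the most abundant gene of the group, was at 77.7 ± 7.69 and 79.8 ± 14.8 FPKM and not called (adjusted p = 0.897). Slc7a14, of the cationic amino acid family, was at 1.50, 1.54, 2.02 and 1.97 FPKM and 3.07, 4.25, 3.59 and 3.82 FPKM (2.09-fold higher, adjusted p = 0.000859). In all 3 rises the knockout values lay above the controls.

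The amino acid group had 2 falls. Slc6a9, the glycine transporter, was at 24.6, 24.2, 20.4 and 20.9 FPKM in controls and 15.2, 9.06, 12.3 and 13.0 FPKM in knockouts (1.81-fold lower, adjusted p = 0.00187). Its locus overlaps Ccdc24 and Gm17114 on the other strand, which fell too, and B4galt2, which was not called, and the sources used here do not say whether the authors' counting used the strand. Slc43a2, a carrier of large neutral amino acids, was at 8.46, 8.07, 8.70 and 8.86 FPKM and 6.22, 4.40, 5.10 and 6.59 FPKM (1.53-fold lower, adjusted p = 0.00602). Each fall left the groups apart, but neither held with equal totals, where Slc43a2 had the opposite sign, and that of Slc43a2 did not hold for its most abundant transcript. Among 16 tested genes of the amino acid stress response 3 rose and 2 fell (18.8% and 12.5%, against 25.3% and 12.1% of all genes): Asns, which makes asparagine, rose from 9.58 ± 0.668 to 15.3 ± 0.688 FPKM (adjusted p = 0.000381), while Sesn2 fell from 15.8 ± 0.933 to 9.53 ± 0.704 FPKM (adjusted p = 0.000307) and Cebpg from 15.3 ± 1.89 to 8.83 ± 1.51 FPKM (adjusted p = 0.00269), both uncalled with equal totals.

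Monocarboxylate carriers include those that bring lactate and pyruvate across the plasma membrane, such as Slc16a1 and Slc16a3. Slc16a1, the most abundant of the 8, was at 25.6, 22.8, 23.7 and 26.9 FPKM in controls and 33.6, 33.4, 32.7 and 36.4 FPKM in knockouts (1.37-fold higher, log2 change 0.44 ± 0.08 SE, limma adjusted p = 0.00201). Slc16a3, known for lactate export, was at 2.77, 2.29, 2.22 and 2.11 FPKM and 3.55, 2.86, 3.73 and 3.42 FPKM (1.44-fold, adjusted p = 0.0169), and was no longer called without knockout replicate 3 or after either median-ratio scaling or removal of small RNAs. Slc16a5 was low, at 0.663, 0.834, 0.807 and 0.695 FPKM and 1.66, 1.80, 1.82 and 1.54 FPKM (2.27-fold, adjusted p = 0.000587), and passed the filter on low values only through the knockouts. Its level came mostly from a processed transcript and a retained intron, together 0.714 ± 0.0818 and 1.50 ± 0.458 FPKM, while its coding entry was at 0.820, 0.0013, 0.00098 and 0.0012 FPKM in the knockouts. Knockouts were above controls in all 3. Slc16a6, next in abundance to Slc16a1, was at 18.5 ± 1.61 and 22.3 ± 2.10 FPKM and not called (adjusted p = 0.0622).

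The partners and enzymes of lactate and pyruvate were counted beside these carriers, and 6 of 15 tested genes rose and 2 fell (40.0% and 13.3%, against 25.3% and 12.1% of all genes). Emb, embigin, escorts monocarboxylate carriers to the membrane, and was at 6.58, 6.64, 9.72 and 9.34 FPKM in controls and 25.3, 32.3, 25.8 and 32.9 FPKM in knockouts (3.60-fold higher, adjusted p = 3.74e-05). Bsg, basigin, is the other such chaperone and the usual partner of Slc16a1, and was at 145 ± 14.6 and 164 ± 20.4 FPKM, not called (adjusted p = 0.270). Ldhc, the lactate dehydrogenase of germ cells, went from 1.66, 1.31, 1.81 and 2.20 FPKM to 8.55, 12.8, 7.60 and 7.75 FPKM (5.26-fold higher, adjusted p = 4.64e-05). Pdha2, the pyruvate dehydrogenase subunit of the testis, went from 9.98 ± 1.90 to 22.5 ± 1.02 FPKM (adjusted p = 0.000115). The 2 falls were Pdk1, from 54.3 ± 4.20 to 34.6 ± 1.39 FPKM (limma adjusted p = 0.000278), and Pdk2, from 4.35 ± 0.639 to 3.21 ± 0.353 FPKM (adjusted p = 0.0403). Dld rose, from 30.1 ± 3.39 to 42.7 ± 1.79 FPKM (adjusted p = 0.00247). The plot of carriers, chaperones and enzymes shows the other genes of the list except Dlat, Dld, Pdhb, Pdk2 and Pdk3.

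**Figure D4:**
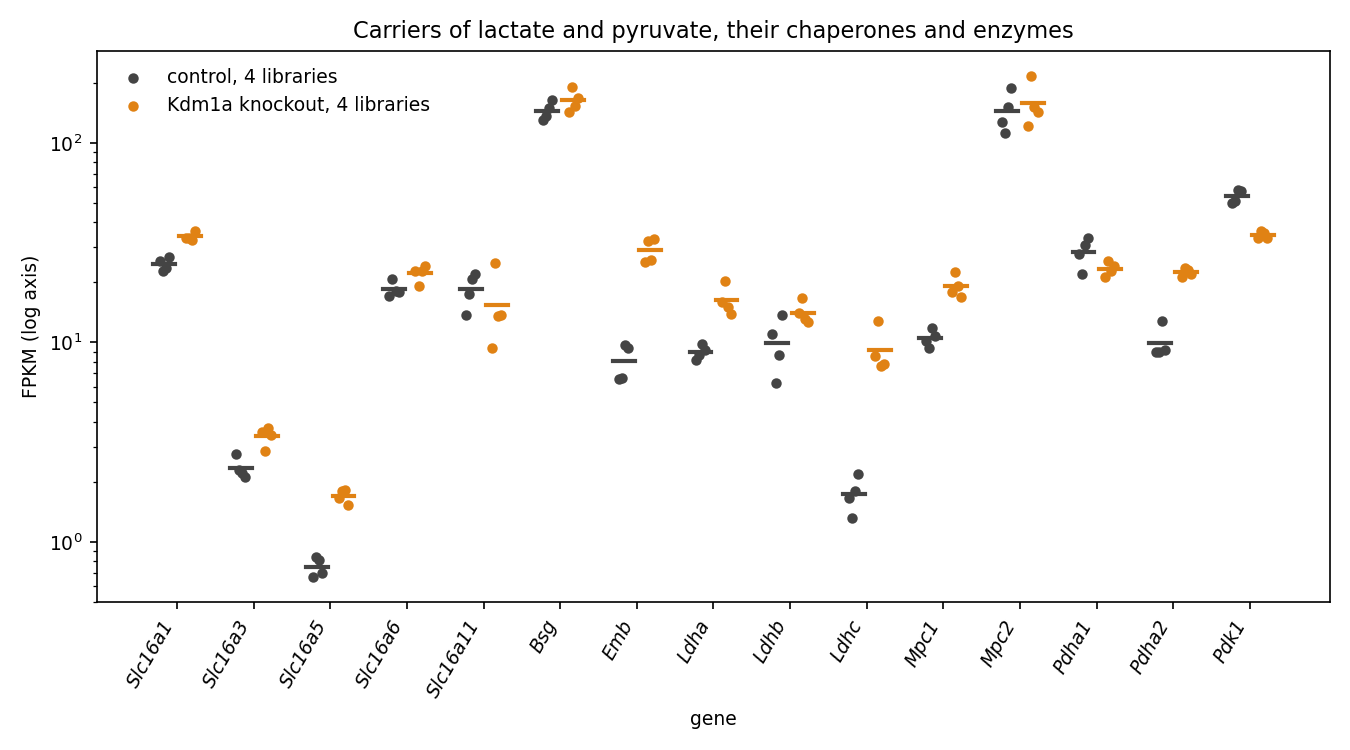
FPKM on a log axis (y axis) of 5 monocarboxylate carriers and of 10 chaperones, pyruvate carriers and enzymes (x axis) in each of the 4 control and 4 knockout libraries, with a line at each group's mean. Emb and Ldhc show the widest gaps between the groups, 3.60-fold and 5.26-fold, Slc16a1 a small one of 1.37-fold, and the groups of Bsg overlap.

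Vitamin carriers included the folate and thiamine carriers of family 19. Slc19a3, a thiamine transporter, had the largest ratio of all carriers named here: 0.150, 0.162, 0.223 and 0.237 FPKM in controls and 1.67, 2.09, 1.89 and 2.19 FPKM in knockouts, 10.2-fold in the means (log2 change 1.31 ± 0.09 SE on the log2(FPKM + 1) scale, limma adjusted p = 1.67e-05). It passed the filter only through the knockouts, so its place among the tested genes depended on its rise. The other thiamine transporter Slc19a2 rose from 12.8 ± 0.515 to 17.8 ± 1.06 FPKM (adjusted p = 0.00162), a call not held by its most abundant transcript alone. The reduced folate carrier Slc19a1 rose from 11.1 ± 0.221 to 13.8 ± 0.707 FPKM (adjusted p = 0.0125), and was not called with median-ratio scaling or with small RNAs removed. Slc46a1, the proton-coupled folate transporter, was at 3.70, 3.38, 3.18 and 3.18 FPKM and 5.95, 8.24, 6.23 and 5.19 FPKM (1.90-fold higher, adjusted p = 0.00172). The most abundant vitamin carriers were not called: the ascorbate carrier Slc23a2 was at 37.7 ± 2.94 and 35.4 ± 7.25 FPKM (adjusted p = 0.586), and Slc5a6, for biotin and pantothenate, at 22.3 ± 1.58 and 23.0 ± 2.87 FPKM (adjusted p = 0.787).

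Sugar carriers were few and low once the excluded glucose transporters were set aside. Slc2a5, the fructose transporter, was at 0.844, 0.658, 0.752 and 0.876 FPKM in controls and 3.45, 2.23, 3.29 and 2.81 FPKM in knockouts (3.76-fold higher, adjusted p = 0.000113), and passed the filter only through the knockouts. Slc50a1, of the SWEET family of sugar carriers, was at 7.53, 10.8, 9.26 and 9.45 FPKM and 16.5, 26.3, 20.3 and 20.1 FPKM (2.25-fold higher, adjusted p = 0.000504). Both calls held under all 17 alternatives. Slc45a4 was at 19.1 ± 1.80 and 17.1 ± 1.26 FPKM and not called (adjusted p = 0.222).

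Carriers of lipids and organic ions split evenly. Slc47a2 exports organic cations in exchange for protons, and was at 1.42, 1.10, 1.10 and 1.38 FPKM in controls and 3.26, 4.72, 4.22 and 3.67 FPKM in knockouts (3.17-fold higher, adjusted p = 0.000101). Its relative Slc47a1 lies 541 bases away on chromosome 11 and was not called, with a log2 change of -0.36. Slc22a16, a carnitine transporter, was at 0.360, 0.431, 0.610 and 0.667 FPKM and 1.31, 2.26, 1.61 and 1.18 FPKM (3.07-fold higher, adjusted p = 0.00276), above the filter only through the knockouts. The choline carrier Slc44a1 rose from 13.5 ± 1.20 to 18.1 ± 0.513 FPKM (adjusted p = 0.00491), and the fatty acid carrier Slc27a4 was at 19.3 ± 0.527 and 18.9 ± 2.67 FPKM, not called (adjusted p = 0.776).

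The falls of this group lay mainly in family 22. Slc22a17, a receptor for lipocalin, was at 9.26, 11.7, 10.2 and 10.4 FPKM in controls and 4.67, 6.18, 6.89 and 5.16 FPKM in knockouts (1.82-fold lower, adjusted p = 0.00118). Slc22a4, the ergothioneine transporter, was at 1.91, 2.13, 1.69 and 1.66 FPKM and 1.15, 1.01, 1.02 and 0.664 FPKM (1.92-fold lower, adjusted p = 0.00458), and passed the filter only through the controls. It lies 2791 bases from Slc22a21 on chromosome 11, which fell from 9.99 ± 1.15 to 7.05 ± 0.389 FPKM (adjusted p = 0.00602). The next gene along, Slc22a5, was not called, with a log2 change of 0.12. None of these 3 falls was called with equal totals, where Slc22a21 had the opposite sign, and the call of Slc22a21 did not hold for its most abundant transcript either (log2 change -0.23, adjusted p = 0.237).

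Of the 5 genes that carry an Slc symbol without being carriers, Slc9a3r2 fell. It encodes a PDZ adaptor that tethers the sodium-proton exchanger and other membrane proteins, and was at 5.48, 4.70, 5.89 and 5.39 FPKM in controls and 1.74, 2.71, 2.18 and 1.75 FPKM in knockouts (2.56-fold lower, log2 change -1.05 ± 0.12 SE, limma adjusted p = 0.000221). The related adaptor Slc9a3r1 was more abundant, at 27.4, 22.6, 40.1 and 38.4 FPKM and 21.0, 47.0, 25.3 and 23.7 FPKM, and did not pass the test (adjusted p = 0.647). Its spread within each group was wider than the difference of the means. Slc4a1ap was at 30.6 ± 2.36 and 37.7 ± 6.58 FPKM, not called (adjusted p = 0.0912).

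By level, of 76 carriers with a mean over 10 FPKM, 34.2% were called, against 34.0% of all 7325 genes above that mean. Of 7 carriers on the X chromosome 3 rose and none fell, beside 307 rises (50.4%) and 26 falls among all 609 tested X-linked genes. In all, 8 carriers reached the level of the filter in 1 group only, 7 in the knockouts and 1 in the controls. Among the 185 that reached it in both, 51 rose and 16 fell (27.6% and 8.65%), against 23.7% and 11.8% of the 12779 genes that did so. Besides Slc6a9, several genes described above overlap a protein-coding gene on the other strand. That gene rose for Slc5a6 (Atraid, from 17.6 to 24.1 FPKM) and for Slc4a1ap (Supt7l, from 17.1 to 20.1 FPKM). It was not called for Slc7a7 (Oxa1l), Slc26a10 (B4galnt1), Slc25a35 (Rangrf), Slc16a6 (Arsg and Amz2), Slc19a1 (Col18a1) and Slc39a11 (Cog1, with Sstr2 below the filter). The members nearest the filter were Slc35e4, Slc22a16 and Slc19a3 just above it, with means over the 8 libraries of 1.01, 1.05 and 1.08 FPKM, and Slc15a5, Slc1a6 and Slc16a14 just under it, at 0.998, 0.981 and 0.962 FPKM.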

How the data were processed

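The authors deposited FPKM for 45550 transcript entries in 8 libraries. The submitters' processing notes name the mm10 build and the tools Cuffdiff, Cufflinks, Bowtie and TopHat, with versions, annotation and filters not given in the sources used here. No count model was applied to these estimated values. Cufflinks divides fragments among entries that share sequence, so overlapping genes and close copies are uncertain.

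Entries were summed by gene identifier. Genes averaging 1 FPKM or more were tested on log2(FPKM + 1), pseudocount 1, by lmFit and eBayes with an intensity trend in limma 3.58.1 (R 4.3.3), the group alone in the model, two-sided, with Benjamini-Hochberg adjustment over all 13483 genes and a threshold of 0.05. The log2 scale understates changes of low genes. Folds are ratios of mean FPKM, and values are means ± SD with n = 4. Positions and transcript types were read from GENCODE M21 (GRCm38, equal to mm10), which held 17257 of 17589 genes and 44291 of the entries. The script was tested on simulated data.

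Substrate groups followed gene families. The members, groups and lists were chosen with earlier results of these data known. Named genes were, in each of the 5 main groups, the called members without overlap of groups that had the 3 largest rises and 3 largest falls (2 in other groups), the 2 most abundant members of each group, the members nearest the filter, Kdm1a, and up to 3 called genes of each further list by adjusted p. Relatives, chromosomal neighbours and overlapping genes of these, the calls of families 19 and 30 and of Slc39a1 and Slc39a11, the marker genes, Bsg, Pdk1, Pdk2 and Dld were named after their values were seen.

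Depth was estimated from 2615 genes with a single entry longer than 600 bases. Of the depths tried, those that made nearly as many low values whole as the best were kept. The estimate was taken at their low end, since multiples of a depth do so too. Between 73.2% and 81.4% of values of up to 20 fragments lay within 0.1 of a whole number, against about 20% at other depths, so 1 FPKM in a transcript of 600 bases rests on over 20 fragments. Small RNA genes, 238 in all, were found by annotated type, by a length under 200 bases or by symbol. Alternatives were another pseudocount (0.1), no filter, 3 scalings, no trend, the replicate number as a block, the most abundant transcript, values of 0 as missing, and each library left out.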

Additional observations from a re-analysis of the deposited data

Results flagged for a closer look

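In 49 named members, both groups of 4 libraries were searched for a library far from the other 3, and 5 of the 98 groups had one, where chance alone picks out about 1 in 20 groups. In 4 of the 5 it was knockout replicate 2, the shallowest library: Slc25a4 stood at 33.8 FPKM there, Slc35d2 at 13.2 FPKM, Slc4a1ap at 47.4 FPKM and Slc9a3r1 at 47.0 FPKM, each above the other knockouts. The calls of Slc25a4 and Slc35d2 as higher also held without that library. The part of depth in these values was not tested. In the controls, Slc5a6 stood at 24.6 FPKM in replicate 2, above the other 3.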

How the results depend on the processing

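With FPKM as deposited, 57 carriers rose and 17 fell. Another pseudocount, no filter, no intensity trend and zeros as missing gave 57 or 58 rises and 17 falls. The deposited sums were 1067254 to 1767024 in controls and 700953 to 1106723 in knockouts. With equal totals 136 rose and 2 fell (70.5% and 1.04%, against 70.8% and 1.12% of all genes). By group the rises were then 17 for amino acids, 35 for ions, 11 for lipids and organic ions, 24 for mitochondria, 6 for monocarboxylates, 25 for nucleotides and 9 for vitamins, and falls were 0, 1, 0 and 0 in the first 4. Signs turned with equal totals, to log2 changes of 0.023 (Slc12a5), 0.37 (Slc12a7), 0.71 (Slc20a1), 0.42 (Slc20a2), 0.20 (Slc22a21), 0.59 (Slc23a2), 0.17 (Slc25a22), 0.71 (Slc25a3), 0.0065 (Slc25a35), 0.080 (Slc25a42), 0.65 (Slc27a4), 0.047 (Slc39a3), 0.29 (Slc41a2), 0.088 (Slc43a2) and 0.20 (Slc4a8). Median-ratio scaling gave 34 falls in all (17.6%, against 20.5% of all genes), 6 falls of amino acid carriers, 9 falls and 7 rises of mitochondrial ones, 5 rises of nucleotide ones, and 3 falls and 3 rises of sugar ones. Of all genes 17.7% rose with that scaling. Small RNAs removed gave 5 falls of mitochondrial, 5 rises of nucleotide, and 1 fall and 3 rises of sugar carriers. Of all genes 20.8% then rose and 15.1% fell. The most abundant transcript alone gave 1 fall of amino acid, 2 falls of lipid and organic ion, 1 fall of nucleotide, 3 rises of sugar and 3 rises of vitamin carriers. Of all genes 23.6% rose and 10.4% fell in that fit. The cause was not tested.

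Leaving out each library in turn gave 47 to 71 rises and 15 to 22 falls in all, with both maxima without knockout replicate 2. Of all genes 19.7% to 28.6% rose and 8.68% to 15.0% fell in these fits, again with both maxima without knockout replicate 2. Rises ranged from 4 to 7 for amino acid, 2 to 5 for monocarboxylate, 7 to 12 for mitochondrial and 3 to 5 for sugar carriers. Falls ranged from 3 to 5 for mitochondrial, 0 to 1 for monocarboxylate and 0 to 1 for sugar carriers. With the replicate number as a block, 53 rose and 16 fell (27.5% and 8.29%, against 22.1% and 10.4% of all genes). Deviations of same-numbered libraries from their group means correlated at 0.224, -0.119, -0.133 and -0.093, and not every library correlated best with its own number. The labels state no pairing, and whether any libraries share a litter or a batch was not tested.

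No call turned into the opposite call under any setting. Depth limits the carriers near 1 FPKM most, and 79 genes below that mean were not tested.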
